A study of Arabidopsis thaliana with 4 samples.

Results

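The IQD genes of Arabidopsis thaliana encode plant proteins that bind calmodulin, the calcium sensor, through arrayed IQ motifs. As background, many IQD proteins sit on microtubules, the plasma membrane or in the nucleus, and they act as scaffolds that join calmodulin and kinesin light chain-related proteins to the cytoskeleton. Through these contacts members of the family shape cells, position the plane of division and pattern cell walls. Acetylation of histone H3 (H3ac) and trimethylation of its lysine 4 (H3K4me3) are marks of genes in use, usually found near one end of the gene, where transcription starts.

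The members were chosen by name: 33 nuclear protein-coding genes, IQD1 to IQD33, of 27444 in the RefSeq gene table have a symbol or synonym made of IQD and digits. Their regions are those that overlapped the gene body or the 500 bp on either side by at least 1 bp. The family was picked out with earlier results of these libraries known, in which IQD15 stood among the genes with the highest folds for both marks, so its values below are a description and support nothing.

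The 4 libraries come from wild-type plants of the Col-0 ecotype, 1 for each mark in each tissue. Callus, a dividing tissue, was grown for 15 days on callus-inducing medium from leaf pieces cut from seedlings aged 2 weeks. The other tissue was mature rosette leaf, and the labels list no treatment for either. With 1 library per tissue and mark, every difference compares libraries, has no replicate check and carries no test. Tissue and time on the medium cannot be told apart, and neither can more cells with a mark and more mark per cell. Callus was read at 1.369 times the depth of leaf for H3ac and at 1.016 times for H3K4me3, from the spacing of the tag values, and total depth is unknown. The table of regions higher in callus held 6 of the 8 callus marker genes with H3ac and 8 of the 9 with H3K4me3. Of all genes with a region it held 7.03% and 8.01%. It held no leaf marker gene. All regions of the mark were called in leaf alone at 2 of the 7 leaf marker genes with H3ac and 7 of the 12 with H3K4me3. Over all genes with a region these shares were 3.26% and 2.90%. The leaf list holds near-identical Rubisco and light-harvesting gene copies between which reads can be misplaced. Both marker lists were chosen with earlier results of these libraries known, so their counts are a description and no check of the tissues.

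Most IQD genes carried both marks in both tissues. By the 500 bp rule 25 of 33 members (75.8%) had an H3ac region, against 69.2% of all genes, and 30 of 33 (90.9%) had an H3K4me3 region, against 73.3% of all genes. Within the gene body the counts were 23 for H3ac (69.7%, against 63.4% of all genes) and 29 for H3K4me3 (87.9%, against 68.5% of all genes). IQD genes were also longer, with a median of 2656 bp against 2078 bp over all genes, and the part of length in these shares was not tested. No member had H3ac without H3K4me3. IQD6, IQD8, IQD16, IQD19 and IQD27 had H3K4me3 alone under the 500 bp rule. IQD4, IQD12 and IQD20 had neither mark in either tissue, at the depth of these libraries.

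What the 500 bp on either side added overlapped neighbouring genes. The gene table holds no strand, and whether such a region also marks the start of the IQD gene was not tested. Of 38 H3ac regions, 12 lay outside the IQD gene body, as did 11 of 45 H3K4me3 regions. All 23 of these overlapped the body of another gene, were called in both tissues and were not listed as higher in callus. For H3ac, IQD10 and IQD33 had such a neighbouring region and nothing else, and for H3K4me3 this was the case for IQD10. The farthest regions taken in lay 458 bp (H3ac, IQD17) and 426 bp (H3K4me3, IQD31) from the gene, and the nearest left out lay 559 bp (H3ac, IQD2, called in leaf alone) and 633 bp (H3K4me3, IQD18) away. An H3ac region that overlapped the next gene, AT1G17490, reached only 30 bp into IQD7, and it is the 1 H3ac region counted for IQD7. Another reached 38 bp into IQD11, which also had an H3ac region of its own.

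**Figure D1:**
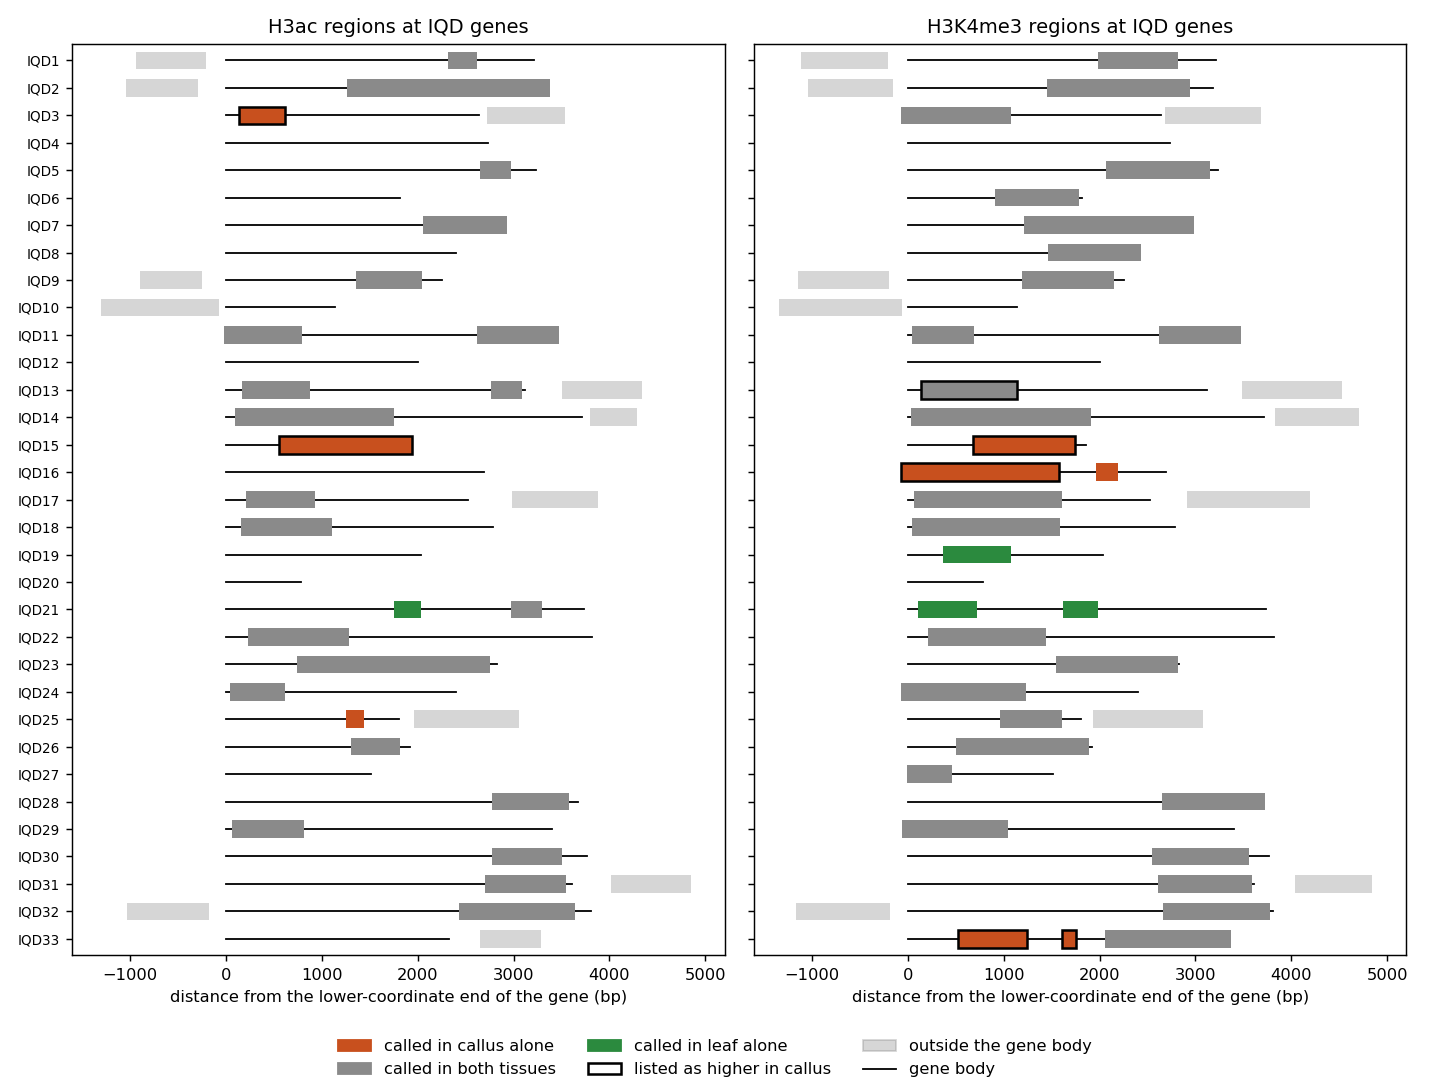
Regions of H3ac (left) and H3K4me3 (right) along the 33 IQD genes, drawn in bp from the lower-coordinate end of each gene body (black line), since the gene table holds no strand. Colour gives the tissue a region was called in, a black outline a listing as higher in callus, and pale bars regions outside the gene body. IQD15 is the 1 gene outlined in both panels, IQD16 has callus-alone regions on the right and none on the left, and IQD19 and IQD21 carry the H3K4me3 regions called in leaf alone.

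The callus libraries held more signal than the leaf libraries at 5 members: IQD15 in both marks, IQD3 in H3ac alone, and IQD13, IQD16 and IQD33 in H3K4me3 alone. A gene is called listed here when the authors' deposited table holds one of its regions, that is, at least 2-fold more callus than leaf tags at a Poisson p of at most 0.01 in the 147 bp around the region centre. For H3ac this held for 2 of 25 members (8%), beside 7.03% of all 18981 genes with a region. For H3K4me3 it held for 4 of 30 (13.3%), beside 8.01% of all 20127 genes. In the gene body alone the members' counts were the same, 2 of 23 (8.70%, beside 5.81% of all genes) and 4 of 29 (13.8%, beside 6.88%). For H3ac the members' share was thus close to that of all genes. For H3K4me3 it was higher by a difference that rests on few genes and was not tested. A single member of the 25 with regions of both marks, IQD15 (4%), was listed for both, beside 3.18% of all genes with both. In the gene body this was 1 of 23 (4.35%), beside 2.90%.

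IQD15 had the highest fold of the listed members for each mark. In the authors' deposited table its H3ac region had 48.9 callus tags, scaled to leaf depth, and 5 leaf tags, which is 9.79-fold (3.99 to 31.1; here and below, brackets hold the exact 95% interval for counting error). Its H3K4me3 region had 119.6 scaled callus tags and 1 leaf tag in the authors' deposited table, or 119.63-fold (21.1 to 4762). Leaf was thus low for both marks, and lowest for H3K4me3, where a single tag leaves the fold open at the upper end. With 1 tag added to both tissues the H3K4me3 fold became 60.3 and the H3ac fold 8.32. Among the regions of the authors' deposited table the IQD15 folds ranked 4 of 1359 for H3K4me3 and 63 of 1617 for H3ac.

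Both IQD15 regions were called in callus alone and sat on the same part of the gene. The H3ac region ran from 18312319 to 18313697 on chromosome 3 (TAIR10) and the H3K4me3 region from 18312438 to 18313509. Their centres lay 35 bp apart, so the stretches in which tags were counted overlapped. The H3ac region, 1378 bp wide, covered the whole of the H3K4me3 region, 1071 bp wide. No other gene overlapped them, and 94.5% of the H3ac region and 100% of the H3K4me3 region lay in the gene body. The centres stood at 67.1% and 65.2% of the gene's length from its lower-coordinate end.

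IQD16, whose protein changes cell and organ shape when overproduced, was the other member, beside IQD15, whose H3K4me3 regions were all called in callus alone. Its main region in the authors' deposited table had 115.7 scaled callus tags and 12 leaf tags, or 9.64-fold (5.32 to 19.2). The callus number was close to that of IQD15, while leaf held 12 tags at IQD16 and 1 at IQD15. This region spanned 6571819 to 6573471 on chromosome 4, 1652 bp, wider than 87.5% of nuclear H3K4me3 regions. A second, 234 bp region, also called in callus alone, overlapped the next gene, AT4G10650, as well and was not listed. No H3ac region lay within 500 bp of IQD16 in either tissue.

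IQD33 had listed H3K4me3 regions at 2 places in its gene body, both called in callus alone. The wider one, 720 bp, had 87.6 scaled callus tags and 28.5 leaf tags in the authors' deposited table, or 3.07-fold (2.00 to 4.87). The narrower one, 150 bp, had 69.9 scaled callus tags and 19 leaf tags in the authors' deposited table, or 3.68-fold (2.19 to 6.47). Leaf tags were counted at both, so that a region called in callus alone is not one without leaf tags. With no input library, leaf signal and background cannot be told apart there. Another H3K4me3 region, 1306 bp wide and called in both tissues, lay mostly in the next gene, with 20.2% of it in IQD33, and was not listed. The H3ac of IQD33 was limited to a region 325 bp away that overlapped the next gene.

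IQD13 and IQD3 lay just over the 2-fold threshold, each in 1 mark. IQD13, a gene of secondary wall patterning in xylem vessels, had 144.7 scaled callus and 68 leaf H3K4me3 tags in the authors' deposited table, or 2.13-fold (1.59 to 2.88). Its region, 22048698 to 22049694 on chromosome 3, was called in both tissues. The H3ac region at the same end of IQD13, with its centre 119 bp away, was called in both tissues too and was not listed. IQD3 had 48.9 scaled callus and 23.5 leaf H3ac tags in the authors' deposited table, or 2.08-fold (1.28 to 3.49). That region, 19393902 to 19394380 on chromosome 3, was called in callus alone and lay inside an H3K4me3 region, 1145 bp wide, that was called in both tissues and not listed. The lower ends of both intervals fell under 2-fold.

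**Figure D2:**
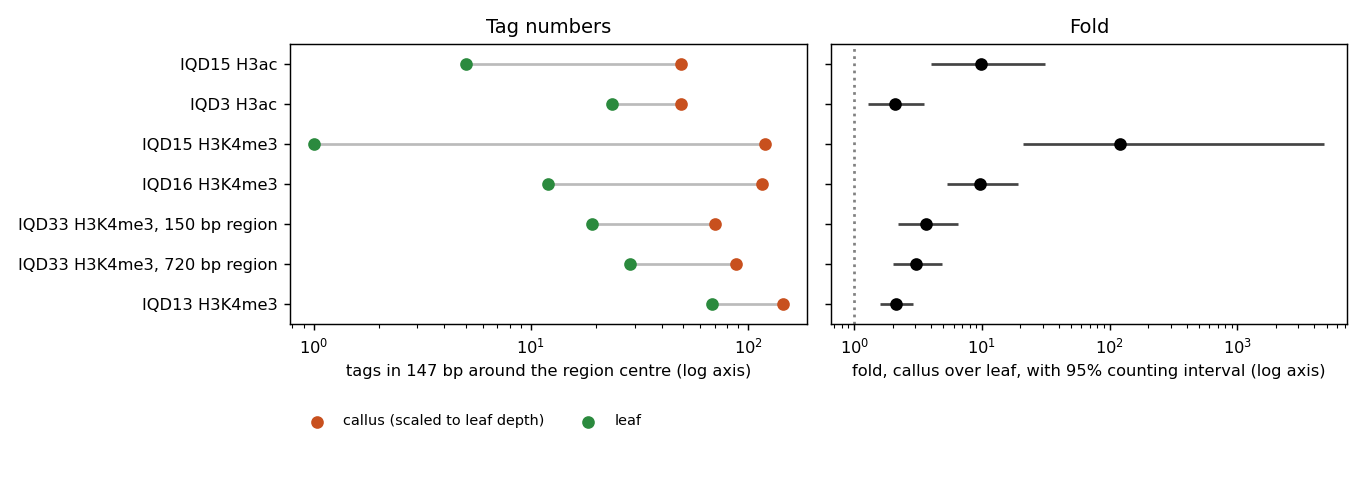
Tags (left) and fold (right) of the 7 IQD gene regions listed as higher in callus, on log axes. Points on the left are tags in 147 bp around the region centre, for callus after scaling to leaf depth and for leaf; lines on the right are exact 95% counting intervals and the dotted line marks equal tags. The callus tags of IQD15 and IQD16 H3K4me3 are alike, at 119.6 and 115.7, and their leaf tags differ, at 1 and 12.

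Calls in 1 tissue ran in both directions in the family. All regions of the mark were called in callus alone for 1 of 25 members for H3ac (IQD15, 4%, beside 5.37% of all genes) and for 2 of 30 for H3K4me3 (IQD15 and IQD16, 6.67%, beside 3.99%). In the gene body these were 3 of 23 for H3ac (IQD3, IQD15 and IQD25; 13.0%, beside 6.36%) and 2 of 29 for H3K4me3 (6.90%, beside 4.80%). The H3ac region of IQD25 was 191 bp wide and not listed, although called in callus alone. Of all nuclear H3ac regions called in callus alone 47.8% were listed, and of such H3K4me3 regions 72.1%, so a call in 1 tissue and a listing are different measures.

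On the leaf side stood IQD19 and IQD21, whose H3K4me3 regions were all called in leaf alone, 2 of 30 members (6.67%) beside 2.90% of all genes. In the gene body this was 2 of 29 (6.90%), beside 3.53%. For H3ac no member of the 25 had regions in leaf alone, beside 3.26% of all genes, nor any of the 23 in the gene body, beside 3.95%. IQD19 had a single H3K4me3 region of 704 bp and no H3ac. IQD21 had H3K4me3 regions of 609 bp and 364 bp. These were narrow regions, wider than only 16.5% (IQD19), 13.1% and 6.49% (IQD21) of nuclear H3K4me3 regions. Whether callus held signal there below the calling limit was not tested. An H3ac region of IQD21, 283 bp wide, was called in leaf alone and overlapped its 364 bp H3K4me3 region. The other H3ac region of IQD21, 325 bp wide, was called in both tissues. The tables used here hold no tag numbers for these regions, so leaf calls carry no fold.

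The other 21 members with a region in the gene body had every such region called in both tissues, and none of these regions was listed. They include IQD1, the first member described, which promotes glucosinolate accumulation; IQD5, which shapes leaf epidermal pavement cells; IQD6, IQD7 and IQD8, which position the division plane; and IQD9, which acts in seed coat cells. Of these, IQD6 and IQD8 had H3K4me3 without H3ac, with regions of 874 bp and 969 bp. IQD17 and IQD18, next in number to IQD15 and IQD16, had both marks called in both tissues, with H3K4me3 regions of 1543 bp and 1545 bp. Not being listed means only that the fold of callus over leaf was under 2 or the p above 0.01, in the 147 bp around the centre. Smaller differences at these genes, and differences of any size toward leaf, are not excluded.

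Among members called in both tissues and not listed, the widths of regions varied several-fold. For H3ac the main region, the one with most bases in the gene, ranged over 19 such members with a median of 798 bp, the narrowest being 306 bp at IQD1 and the widest 2110 bp at IQD2. For H3K4me3 the median over 23 such members was 1107 bp, from 477 bp at IQD27 to 1883 bp at IQD14. The 2110 bp H3ac region of IQD2 reached into the next gene, AT5G03050. The 2009 bp H3ac region of IQD23 stayed within the gene and was wider than 97.4% of nuclear H3ac regions.

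The family ranged from genes with broad regions of both marks to genes with a narrow H3ac region inside a wider H3K4me3 one. IQD14 was of the first kind, with 1657 bp of H3ac and 1883 bp of H3K4me3 and centres 51 bp apart. IQD22 had 1050 bp of H3ac and 1228 bp of H3K4me3. IQD5 was of the other kind, with 322 bp of H3ac inside 1081 bp of H3K4me3. IQD1, with 306 bp and 838 bp, and IQD26, with 509 bp and 1383 bp, were like it. The closest placement of the marks was at IQD28, whose centres lay 11 bp apart. IQD29, IQD30 and IQD31 lay near the middle of the family, with H3ac regions of 748 bp, 727 bp and 847 bp and H3K4me3 regions of 1107 bp, 1006 bp and 984 bp. IQD23 had the marks set apart the most among genes whose main regions overlapped, with 433 bp between the centres.

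The marks shared their places on the genes. In 23 of 23 IQD genes with both marks in the body an H3ac region overlapped an H3K4me3 region, as in 99.7% of all genes with both. The main regions lay toward the same end of the gene in 22 of 23 members (95.7%) and in 93.8% of all genes with both marks, with IQD21 as the exception. Their centres lay 119 bp apart at the median in IQD genes and 78 bp in all genes. H3K4me3 was the wider mark in 18 of 23 members (78.3%) and in 84.0% of all genes, with a median surplus of 284 bp in IQD genes and 248 bp in all genes. These widths are of whole regions, with any part in a neighbouring gene included, as at IQD2 and IQD7. IQD15 was 1 of 5 members with the wider region in H3ac, beside IQD2, IQD11, IQD23 and IQD32. Region centres lay at a median of 18.9% (H3ac) and 22.8% (H3K4me3) of the gene's length from its nearer end in IQD genes, against 18.0% and 19.5% in all genes. The shares with overlap and with the same end were thus close to those of all genes. The median distance between centres and the share with wider H3K4me3 differed more, and no difference was tested.

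**Figure D3:**
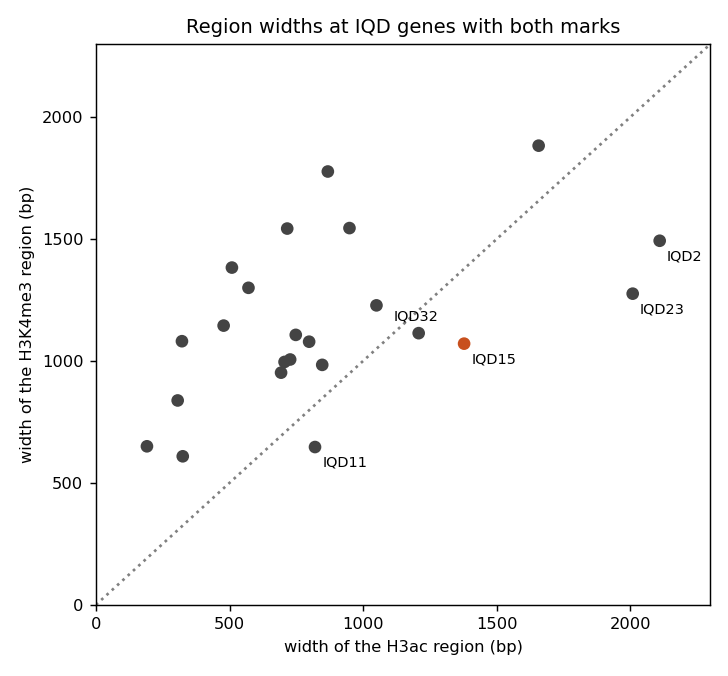
Widths in bp of the main H3ac region and the main H3K4me3 region (the region of each mark with most bases in the gene) of the 23 IQD genes with both marks in the gene body, 1 point per gene, with a dotted line of equal widths. The 18 points above the line have the wider region in H3K4me3, and the 5 named genes lie below it, IQD15 (orange) among them. Widths are of whole regions, with any part outside the gene included.

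Lists of calmodulin, cytoskeleton and signalling genes, matched by name, were then set beside the family under the same 500 bp rule. Whether each gene's protein works with an IQD protein was not tested. Over all genes with a region, 7.03% were listed for H3ac and 8.01% for H3K4me3, and a short list can hold none at such a share. None of the calmodulin genes was listed as higher in callus, 0 of 8 with a region for each mark, nor were the 3 kinesin light chain-related genes KLCR1, KLCR2 and KLCR3, which all carried both marks. The 3 calmodulin-binding transcription activator genes found carried both marks too and none was listed. Matching by symbol or synonym found 14 calmodulin-like genes, which need not be the whole family. Among those with a region 1 of 11 was listed for H3ac (9.09%) and 2 of 10 for H3K4me3 (20%). These were CML43 with 2.99-fold H3K4me3 (2.06 to 4.44) and CML11 with 2.36-fold H3K4me3 (1.77 to 3.16) and 2.04-fold H3ac (1.30 to 3.30) in the authors' deposited table.

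In the division plane list, which holds genes of the preprophase band and phragmoplast, 6 of 43 genes (14.0%) were listed for H3ac and 9 of 51 (17.6%) for H3K4me3, beside 7.03% and 8.01% of all genes. These differences rest on few genes and were not tested, and the list was chosen with earlier results of these libraries known. The list was matched by symbol, and 6 of its 54 genes share a symbol with another gene on it. TRM and digits also name genes of other families, TRM82 and some of these 6 among them, so part of the list belongs elsewhere. TRM28 had 4.75-fold H3ac (2.63 to 9.28) in its gene body in the authors' deposited table, beside an 8.62-fold region (2.45 to 54.4) outside it, and 2.04-fold H3K4me3 (1.61 to 2.60). PLE, the gene of the microtubule bundler MAP65-3, had 4.66-fold H3ac (2.02 to 12.8) and 2.69-fold H3K4me3 (2.02 to 3.61) in the authors' deposited table. TRM24 followed with 3.61-fold H3ac (1.71 to 8.66) in the authors' deposited table. The other genes of this list that were listed, among them MAP65-4, MAP65-9 and LNG1, named after their values were seen, had folds of 2.02 to 3.17 in the authors' deposited table. POK2, named after its values were seen because this kinesin acts with IQD6, IQD7 and IQD8 at the division plane, had 191.0 scaled callus and 83 leaf H3K4me3 tags, or 2.3-fold (1.77 to 3.01), in the authors' deposited table.

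Genes matched by name to ROP signalling, a pathway that steers microtubules at the cell cortex, had 1 of 29 listed for H3ac (3.45%). For H3K4me3 it was 2 of 34 (5.88%), beside 7.03% (H3ac) and 8.01% (H3K4me3) of all genes. Of the 41 genes matched, 2 share a symbol with another gene on the list. RIP1 is both the symbol of a gene on the list and a synonym of ICR1. Part of the list may thus belong elsewhere, and whether each gene acts in ROP signalling was not tested. RIP5 had 5.91-fold H3K4me3 (3.54 to 10.4) and 2.19-fold H3ac (1.44 to 3.42) in the authors' deposited table. RIP3, also called MIDD1, which like IQD13 acts in xylem wall patterning, had 2.22-fold H3K4me3 (1.69 to 2.93) in the authors' deposited table, a fold near the 2.13 of IQD13.

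**Figure D4:**
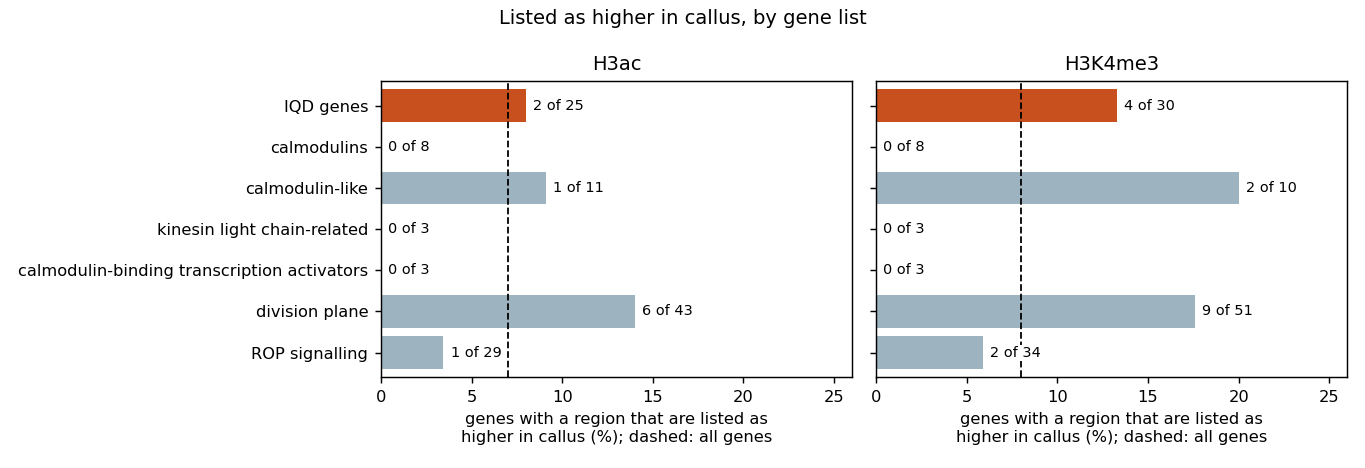
Share of genes with a region that are listed as higher in callus, in percent, for H3ac (left) and H3K4me3 (right), for the IQD genes (orange) and the other gene lists (blue). The numbers beside the bars are genes listed and genes with a region, and the dashed lines mark the share of all genes, 7.03% and 8.01%. The IQD bar stands near the line for H3ac at 2 of 25 and above it for H3K4me3 at 4 of 30.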

How the data were processed

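Chromatin immunoprecipitation libraries of H3ac and H3K4me3 were made from callus and leaf, 1 per mark and tissue. HOMER 4.10.4, SAMtools 1.11, Bowtie2 2.3.4.3 and the TAIR10 build are listed without roles, per the submitters' processing notes; the filtering of reads is not given in the sources used here, and no input library enters the tables. Per the file headers, regions were called per library, merged with mergePeaks, and compared with HOMER's differential peak tool. The authors deposited a score per region, not used for any result here, and, for regions higher in callus only, the tag signal in 147 bp around the centre and its fold, the ratio of callus to leaf. Leaf tags come in steps of 0.5 and callus tags are scaled to leaf.

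Regions were matched to genes of the RefSeq table (assembly TAIR10.1, without strand or exons). Its positions were checked against the files by shifting H3K4me3 centres by up to 4000 bp: no shift put more centres inside genes than none did, on 5 of 5 chromosomes. Only coordinates of the authors' files are printed. Width is end minus start. The 95% interval of a fold is the exact conditional one of 2 tag numbers before scaling (Clopper-Pearson), with 1 tag taken as 1 read, and was tested on simulated data; these intervals cover counting error only and ignore that regions were listed for a high fold. Members and lists were chosen with earlier results of these data known. The naming rule took every IQD gene and up to 3 genes of each other list with the highest fold; genes named outside it are marked in the text. Lists were matched by symbol or synonym, so that CAM8 and CAM9 are on both calmodulin lists. Searches for promoter and protein motifs were not run, since no sequence was used here. Python 3.11.15, pandas 2.3.3, NumPy 2.4.6, SciPy 1.17.1 and Matplotlib 3.10.9 were used.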

Additional observations from a re-analysis of the deposited data

How the results depend on the processing

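The count of members whose H3ac regions were all called in callus alone was 1 under the 500 bp rule. It became 3 in the gene body alone, 3 without regions that lie only in another gene, and 2 with at least 50% of a region inside the window. The members listed as higher in callus fell to 1 for H3ac, both at 4-fold or more and with the interval above 2-fold, and to 2 for H3K4me3 at 4-fold or more. With more than 3 leaf tags required, H3K4me3 kept 3 members and lost IQD15, which had 1 leaf tag. With this one, 44 alternatives stayed within 1.5 times the count or within the interval of the fold, among them a window of 1000 bp, which gave 26 members with H3ac and 31 with H3K4me3. If 0.5 tags were 1 read, the IQD15 intervals would be 5.16 to 20.9 for H3ac and 32.8 to 993 for H3K4me3. No paired analysis was possible because each group has 1 library. The IQD15 H3K4me3 fold rests on 1 leaf tag, and total depth is unknown.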
